A study of Mus musculus with 6 samples.

Results

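The laminin chains described here are 9 mouse genes, Lama1, Lama2, Lama3, Lama4, Lama5, Lamb1, Lamb2, Lamb3 and Lamc1, found in the table by matching their Ensembl identifiers to GENCODE symbols, out of 56953 genes in all. RNA was sequenced from MEFs, the fibroblasts cultured from mouse embryos, as 3 libraries labelled WT and 3 labelled GαqKO. The second line carries a knockout that the methods describe as Gαq/11, the alpha subunits of the Gq class of G proteins. Both lines grew untreated in DMEM with fetal bovine serum, penicillin and streptomycin, so genotype was the only labelled difference. Both came from the same outside laboratory, and the sources used here give neither the strain nor the number of embryos or clones behind each line. The study states 3 biological replicates per genotype without saying how they were separated, so the p-values measure the spread between these libraries, and a difference between genotypes cannot be told apart from a difference between the lines.

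Laminins are the large cross-shaped glycoproteins from which the basement membrane is built. Each is a trimer of an α, a β and a γ chain. The β and γ chains pair inside the cell and wait there for an α chain, whose arrival lets the trimer be secreted, and the globular domains at the end of the α chain bind integrins and dystroglycan on the cell surface. Fibroblasts and other mesenchymal cells are known mainly for the α2 and α4 chains, epithelia for α3 and α5, and the early embryo and its parietal endoderm for α1.

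The libraries held 11392429 to 11483486 normalized counts each, totals that normalization brings close together, so they do not show depth. The reads that could be recovered in 5 of them numbered 9853000 to 12229175, and those of GαqKO replicate 3 were not recovered. A normalized count is a gene's reads divided by a size factor of the library, and 1 read was worth between 0.939 and 1.16 of them, so a value near 20 rests on about that many reads. Gna11, which codes for Gα11, had 2141, 2180 and 2123 normalized counts in WT and 472, 464 and 419 in GαqKO (log2 fold change -2.25, limma, adjusted p = 9.16e-13). Gnaq, which codes for Gαq, was not lower, with means of 1691 in WT and 1926 in GαqKO. Counts over a whole gene cannot show the loss of only some exons, so they do not check that label. Of the marker lists, the fibroblast markers summed to 73273 to 79225 normalized counts in WT and 55981 to 58384 in GαqKO. Vim, the intermediate filament gene that held most of that sum, had means of 41785 and 33508. Lum, a proteoglycan gene of fibroblasts, was listed at 0 in all 3 WT libraries and reached at most 4.03 in GαqKO, and Thy1 was at most 2.09 in WT against 59.0 to 76.5 in GαqKO.

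The WT libraries also held RNA of genes listed as markers of other cell types. The 6 genes listed as parietal endoderm markers summed to 2903 to 2965 normalized counts in WT and 13.1 to 16.9 in GαqKO. Almost all of the WT sum came from Gata4, Gata6 and Foxa2, so it does not identify parietal endoderm. Gata4, the most abundant of them and a transcription factor of endoderm and heart, had a WT mean of 1234 and was lower by at least 411-fold in GαqKO, where every library was at or under the floor of 3 counts. Gata6 and Foxa2, 2 more endoderm factors on that list, had WT means of 1039 and 643 and were likewise at the floor in GαqKO, while Sox17 and Afp were at the floor in all 6 libraries. Pth1r, the sixth marker, did not pass the test, with means of 7.04 in WT and 12.7 in GαqKO (log2 fold change 0.89, limma, adjusted p = 0.097), and it made up most of the GαqKO sum. The 8 epithelial markers summed to 516 to 546 in WT and 11.1 to 25.4 in GαqKO. Krt14, a keratin of basal epithelium, had a WT mean of 258 and was lower by at least 86.0-fold in GαqKO. Cdh1, for E-cadherin, had means of 238 in WT and 7.96 in GαqKO (log2 fold change -4.79, limma, adjusted p = 8.62e-10). Krt14 and Cdh1 passed the filter only through the WT libraries, so they could be tested only because the groups differed. Krt8 and Krt18 did not pass the filter, with WT means of 17.3 and 14.5 and GαqKO means of 0.721 and 1.01. Krt5 was at the floor in all 6 libraries, and Epcam, Esrp1 and Cldn4 did not exceed 8.09 in any. Endothelial markers summed to at most 26.6 and skeletal muscle markers to at most 12.5 in any library. In bulk RNA, fewer cells of a type and less RNA per cell cannot be told apart.

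Of the 9 chains, 7 reached the filter of 10 normalized counts in at least 3 libraries and were tested with limma on log2(normalized count + 1). Past both thresholds, an adjusted p under 0.05 and a log2 fold change over 1 or under -1, Lama4 was the 1 chain that was higher in GαqKO, against 10.2% of all 14096 tested genes. The 2 that were lower were Lama5 and Lamb3, against 10.5% of all genes. At an adjusted p under 0.05 and any fold, 3 chains were higher (Lama4, Lamb1, Lamb2) and 3 were lower (Lama5, Lamb3, Lamc1), where 31.8% of all genes were higher and 34.1% lower. Lama4 passed the filter only through the GαqKO libraries and Lamb3 only through the WT libraries, so those 2 could be tested only because the groups differed. The median log2 fold change of the 7 was -0.21, beside -0.01 over all tested genes. Lama1 and Lama3 did not pass the filter.

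**Figure D1:**
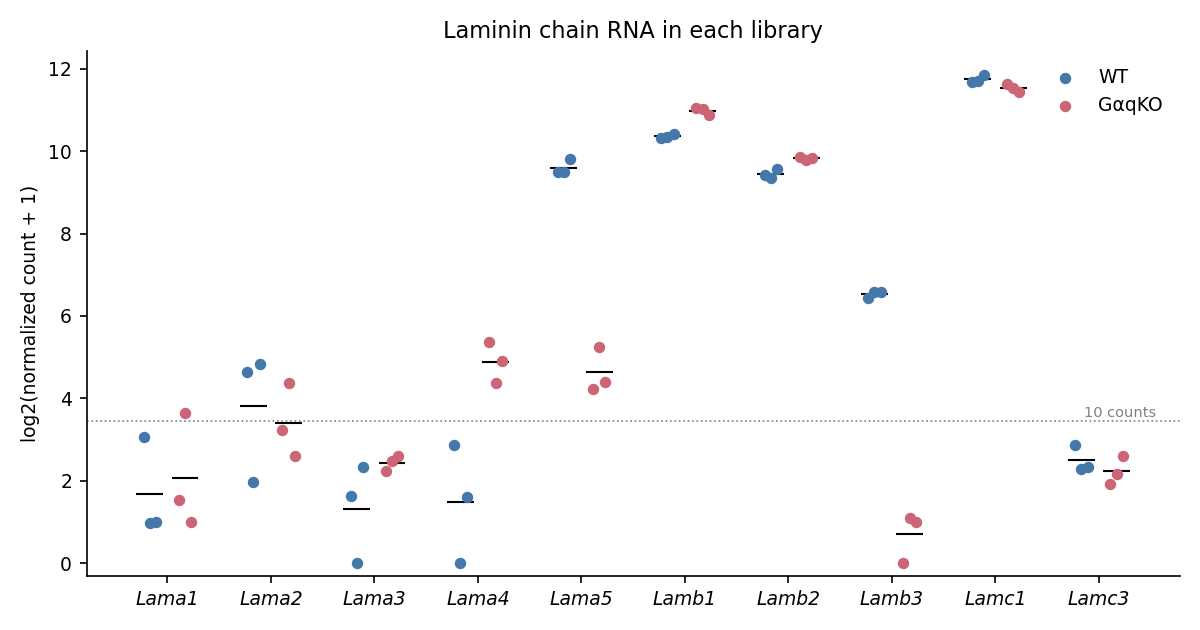
Each point is 1 library, with the log2 of its normalized count plus 1 on the vertical axis, for the 9 laminin chains and for Lamc3. Black bars are group means and the dotted line marks 10 normalized counts. Lama5 and Lamb3 are lower in all 3 GαqKO libraries than in any WT library, Lama4 is higher in all 3, and Lama1, Lama3 and Lamc3 lie mostly under the line.

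Of the α chains, which carry the receptor-binding domains, Lama5 fell and Lama4 rose. Lama5 codes for the α5 chain of epithelial and vascular basement membranes and lies on the minus strand at chr2:179818166-179867712 of GRCm39. It had 720.5, 720 and 897 normalized counts in WT replicates 1, 2 and 3, and 17.8, 37.0 and 20.1 in GαqKO replicates 1, 2 and 3. All GαqKO libraries were far below all WT libraries, and the WT mean of 779 ± 102 (SD, n = 3) was 31.2 times the GαqKO mean of 25.0 ± 10.5 (SD, n = 3). The log2 fold change was -4.97 with an SE of 0.22 (limma, adjusted p = 1.56e-10), and over the 15 alternatives it ran from -5.28 to -4.75 with no call lost. The remaining GαqKO values were above the 90th percentile of low protein-coding genes of like span in the same libraries, which was 11.3, 12.7 and 11.1.

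Lamb3 codes for the β3 chain, best known from the epithelial basement membrane. Its gene lies at chr1:192890007-193027705 on the plus strand of GRCm39. Its values were 85.6, 94.2 and 94.7 normalized counts in WT and 0, 1.16 and 1.01 in GαqKO. The WT libraries lay within a narrow range around a mean of 91.5 ± 5.10 (SD, n = 3), and every GαqKO library was under the floor of 3 counts, so Lamb3 was at least 30.5-fold lower (limma, adjusted p = 1.36e-08). Of its exon bases 19.2% lie inside the spans of other genes, introns included. How many reads there could belong to an exon of another gene was not measured.

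The sums of the parietal endoderm and epithelial markers were, like Lama5 and Lamb3, lower in every GαqKO library than in any WT library. The same held for the sums of the fibroblast, smooth muscle and pericyte, Schwann and macrophage markers, while endothelial and skeletal muscle sums overlapped between groups. The falls differed in size. The endoderm sums were 2903 to 2965 in WT and 13.1 to 16.9 in GαqKO, and the epithelial sums 516 to 546 and 11.1 to 25.4. The fibroblast sums were 73273 to 79225 in WT and 55981 to 58384 in GαqKO, and the macrophage sums 104 to 115 and 69.5 to 103. The part of any of these markers in the laminin results was not tested.

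The promoter windows of Lama5 and Lamb3 are shown because these chains fell the most, and that of Lamb1 because it rose and is paired with Lama5 in the same trimer. The windows are the 300 bases from 250 before to 50 after a transcription start, as RefSeq gives them on GRCm38.p6, a different build from the GRCm39 positions above. Entries were found for 5 of the 9 chains (Lama2, Lama5, Lamb1, Lamb2, Lamb3), in 6 windows, since Lamb3 has 2 starts whose windows overlap. Lama1, Lama3, Lama4 and Lamc1 had no entry. Each line runs 5′ to 3′ on the gene's strand, and capitals mark matches on either strand to GGGCGG (the GC box), TGANTCA (AP-1), TATAAA (a core promoter element), CCAAT (known for binding NF-Y), CANNTG (the E-box) and AGATAA (letters known for binding factors of the Gata4 family).
Lama5 promoter at chr2:180225810-180226109, minus strand: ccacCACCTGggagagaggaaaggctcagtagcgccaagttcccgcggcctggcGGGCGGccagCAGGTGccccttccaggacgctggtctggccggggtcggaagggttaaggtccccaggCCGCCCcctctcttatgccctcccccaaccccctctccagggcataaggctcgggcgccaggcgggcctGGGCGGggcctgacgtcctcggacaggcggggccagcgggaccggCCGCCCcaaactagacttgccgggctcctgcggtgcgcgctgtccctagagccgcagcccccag
Lamb3 promoter at chr1:193301744-193302043, plus strand: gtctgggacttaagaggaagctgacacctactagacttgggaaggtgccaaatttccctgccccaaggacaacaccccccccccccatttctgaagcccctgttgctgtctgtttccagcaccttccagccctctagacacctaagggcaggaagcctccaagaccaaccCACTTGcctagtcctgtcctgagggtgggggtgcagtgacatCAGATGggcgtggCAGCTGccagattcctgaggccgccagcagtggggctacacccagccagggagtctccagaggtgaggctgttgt
Lamb3 promoter at chr1:193301993-193302292, plus strand: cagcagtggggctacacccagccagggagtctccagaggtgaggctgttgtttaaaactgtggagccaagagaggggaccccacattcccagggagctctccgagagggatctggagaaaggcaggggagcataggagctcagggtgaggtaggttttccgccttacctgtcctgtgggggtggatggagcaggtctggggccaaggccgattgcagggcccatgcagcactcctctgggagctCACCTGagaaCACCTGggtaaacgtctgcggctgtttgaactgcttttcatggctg
Lamb1 promoter at chr12:31265043-31265342, plus strand: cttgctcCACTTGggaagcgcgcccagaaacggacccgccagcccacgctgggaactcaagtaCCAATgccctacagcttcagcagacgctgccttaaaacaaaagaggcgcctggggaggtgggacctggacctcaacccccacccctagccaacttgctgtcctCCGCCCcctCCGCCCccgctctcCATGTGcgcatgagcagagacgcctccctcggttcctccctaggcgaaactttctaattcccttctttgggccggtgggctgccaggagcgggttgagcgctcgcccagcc

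The Lama5 window was 72.7% G or C, more than 93.9% of all 32817 windows, and held 4 GC boxes and 2 E-boxes. Lamb1 was at 63.7% G or C with 2 GC boxes, 2 E-boxes and 1 CCAAT. Both Lamb3 windows were at 59.3%, with no GC box and with 3 and 2 E-boxes. Of all windows 35.6% held a GC box, 72.3% an E-box, 37.4% a CCAAT, 13.6% the letters TATAAA, 11.2% the letters for Gata4-family factors and 7.81% those for AP-1. None of the 6 windows of the 5 chains held any of these last 3 motifs. No matches overlapped each other, and a match or its lack describes the letters of the window only.

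Lama4 codes for the α4 chain of mesenchymal and vascular basement membranes, and lies at chr10:38841141-38998403 on the plus strand of GRCm39. It had 6.27, 0 and 2.04 normalized counts in WT and 40.4, 19.7 and 29.2 in GαqKO. All 3 GαqKO libraries were above all WT libraries, although the highest remained low beside Lamb1 or Lamc1. The log2 fold change was 3.40 with an SE of 0.61 (limma, adjusted p = 0.000245), and it ran from 2.20 to 4.08 over 14 alternatives, with the call kept in each. The group means were 2.77 ± 3.20 and 29.7 ± 10.4 (SD, n = 3).

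At such low levels the counts of genes that are barely used are of interest. Among low protein-coding genes, those with a mean under 30 normalized counts, values grew with the span of the gene and differed between libraries. For the 135 low genes spanning over 500 kb the median was 15.7, 2.91 and 10.2 in WT replicates 1, 2 and 3 and 10.3, 17.3 and 7.05 in GαqKO replicates 1, 2 and 3, whereas for those under 50 kb it was 0 in all 6. These limits on level and span were chosen after the data were seen. The 1007 low genes within 0.5 to 2 times the span of Lama4 had a 90th percentile of 16.0, 18.5 and 16.1 in the GαqKO libraries. Lama4 exceeded it in all 3, by little in replicate 2, while in WT it was under the 90th percentile of 15.5 to 19.3 in every library.

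Lama2 codes for the α2 chain, the laminin of muscle and peripheral nerve, and spans 640 kb at chr10:26856032-27495754. It had 24.0, 2.91 and 27.5 normalized counts in WT and 8.45, 19.7 and 5.04 in GαqKO. The groups overlapped, because WT replicate 2 was the lowest and GαqKO replicate 2 was higher than the other GαqKO libraries. The log2 fold change was -0.41 with an SE of 0.67 (limma, adjusted p = 0.606). Without WT replicate 2 it was -1.34 (limma, adjusted p = 0.0355), without WT replicate 1 it was 0.00044, and without WT replicate 3 it was 0.094, so neither its direction nor its call held over the libraries.

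The 264 low genes of like span had medians of 11.0, 1.94 and 7.12 in WT replicates 1, 2 and 3 and of 7.51, 12.7 and 5.04 in GαqKO replicates 1, 2 and 3. Lama2 was low in the WT library where these medians were low, and highest among the GαqKO libraries where they were highest. It exceeded their 90th percentile only in WT replicate 3, at 27.5 against 20.1. Of its exon bases 46.8% lie inside the spans of other genes. The part of either in the Lama2 values was not tested.

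**Figure D2:**
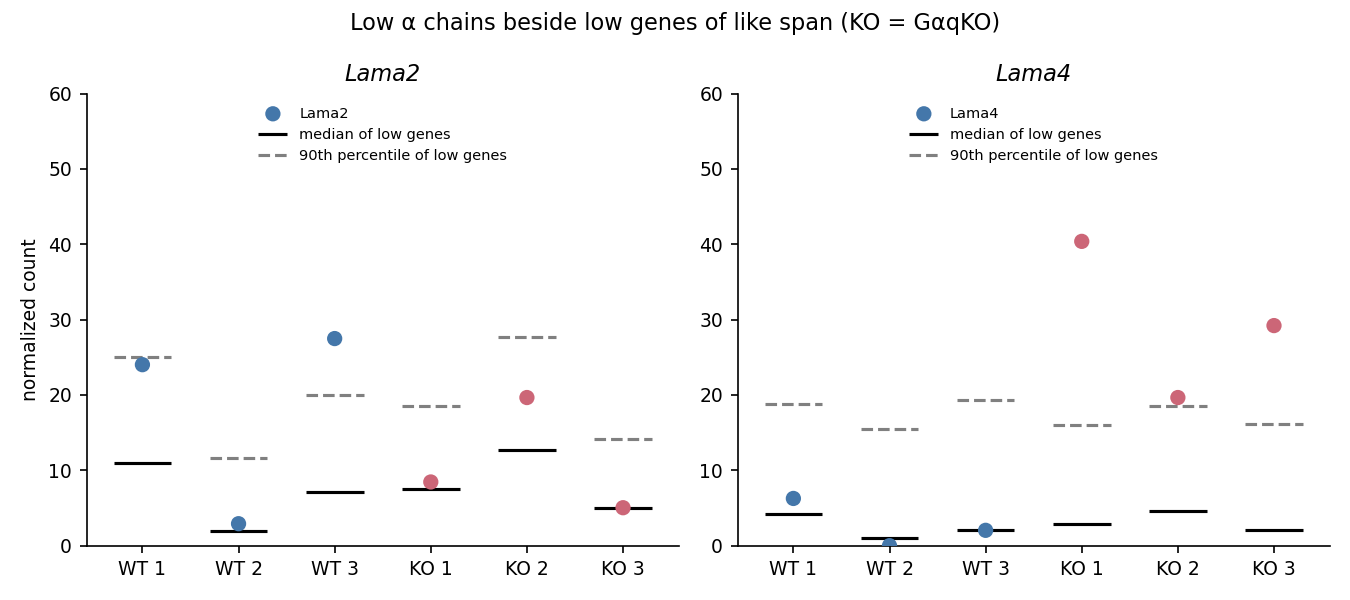
Dots are the normalized counts of Lama2 (left) and Lama4 (right) in each library, black lines are the median and dashed lines the 90th percentile of low protein-coding genes of like span in the same library. Lama2 is lowest at 2.91 in WT replicate 2, where the black line is lowest too, and highest at 27.5 in WT replicate 3, while Lama4 lies over the dashed lines in the 3 GαqKO libraries only.

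Lama1 and Lama3 stayed near the floor in most libraries. Lama1, for the α1 chain of the earliest embryonic basement membranes, had 7.31, 0.971 and 1.02 normalized counts in WT and 1.88, 11.6 and 1.01 in GαqKO. Lama3, for the α3 chain of epithelial anchoring laminins, had 2.09, 0 and 4.07 in WT and 3.76, 4.62 and 5.04 in GαqKO. For both genes the groups overlapped, and every value was under the 90th percentile of low genes of like span in its library. No fold change is given for them.

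The β1, β2 and γ1 chains, the common frame of most laminins, were abundant in both groups and changed little. Lamb1 had 1279, 1291 and 1374 normalized counts in WT and 2100, 2073 and 1863 in GαqKO. The groups did not overlap, and the log2 fold change was 0.61 with an SE of 0.06 (limma, adjusted p = 3.33e-07). Lamb2, whose β2 chain is best known from the synapse and the kidney filter, had 683, 655 and 751 in WT and 932, 874 and 908 in GαqKO. It rose by 0.38 with an SE of 0.06 on the log2 scale (limma, adjusted p = 0.000117), again without overlap. Both rises were smaller than the fold threshold, and both calls held in all 15 alternatives.

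Lamc1 codes for the γ1 chain, the partner in most laminins, and was the most abundant chain. It had 3259, 3340 and 3668 normalized counts in WT and 3149, 2961 and 2781 in GαqKO. The groups did not overlap, though the gap between the lowest WT and the highest GαqKO library was narrow. The log2 fold change was -0.21 with an SE of 0.06 (limma, adjusted p = 0.00495), and without a trend in the prior spread the same value had an adjusted p of 0.0577 (limma). Over the 15 alternatives it ran from -0.25 to -0.15.

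**Figure D3:**
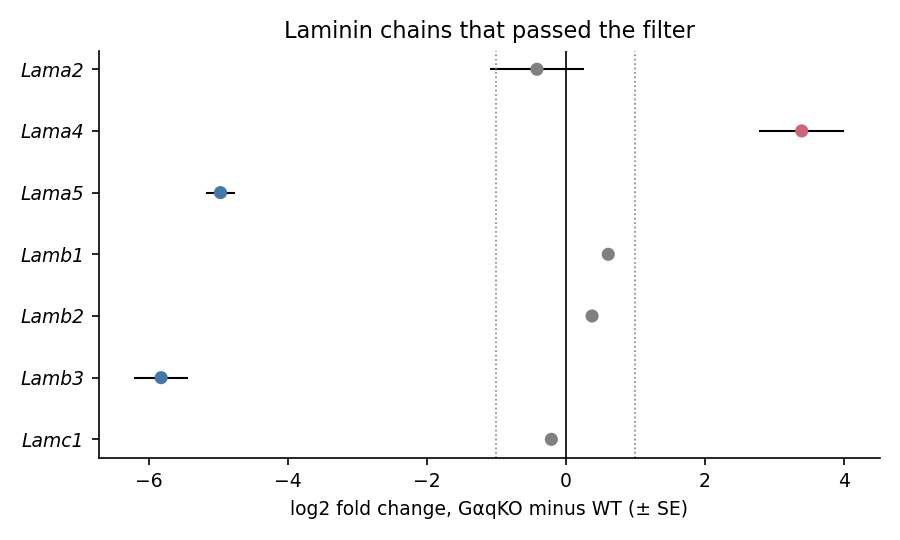
Points are log2 fold changes of GαqKO minus WT and bars their standard errors, for the 7 tested chains; red and blue mark genes higher and lower past both thresholds (dotted lines at 1 and -1) and grey the others. Lama5 at -4.97 and Lamb3 at -5.83 lie far to the left, Lama4 at 3.40 to the right, and the Lamb3 value, fitted against a group at the floor, depends on the pseudocount.

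To compare levels between chains, normalized counts were divided by the exon length in kb that no other gene span covers. Spans include introns, so bases where reads may have been counted are left out. For Lama2 that length was 9478 of 17831 exon bases. On this scale the order in WT was Lamc1, Lamb1, Lamb2, Lama5, Lamb3, Lama2, Lamc3, Lama1, Lama4 and Lama3, with Lamc3, for the γ3 chain, taken in because some trimers need it. The mean levels per kb were 302 ± 19.2 for Lamc1, 126 ± 4.96 for Lamb1, 114 ± 8.14 for Lamb2, 68.6 ± 8.97 for Lama5 and 13.8 ± 0.767 for Lamb3 (SD, n = 3). Lamb1 and Lamb2 overlapped in range, Lama5 and Lamb3 were each separate from the next, and from Lama2 downward every neighbour overlapped with the next.

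In GαqKO the order was Lamc1, Lamb1, Lamb2, Lama5, Lama4, Lama2, Lama1, Lamc3, Lama3 and Lamb3. The mean levels per kb were 262 ± 16.2 for Lamc1, 193 ± 12.4 for Lamb1, 149 ± 4.74 for Lamb2, 2.20 ± 0.921 for Lama5 and 2.00 ± 0.699 for Lama4 (SD, n = 3). The first 3 were separate from their neighbours, Lama5, Lama4, Lama2, Lama1 and Lamc3 each overlapped with the next in order, and Lamb3 lay under Lama3 in every library.

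The α chains together were much lower relative to their partners in GαqKO. Summed per kb, the 5 α chains stood at 71.1 ± 9.90 in WT and 6.24 ± 1.78 in GαqKO (SD, n = 3). The β chains stood at 254 ± 13.2 and 342 ± 13.2. The level of Lamc1 was 4.28 ± 0.347 times that of the α chains in WT and 44.0 ± 10.6 times in GαqKO, while the β chains stood at 0.841 ± 0.0166 and 1.31 ± 0.0306 of the Lamc1 level. None of these sums or ratios overlapped between groups (exact permutation test, two-sided p = 0.1 for each, the smallest that 20 regroupings of 3 against 3 can give).

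Lama5 held 96.5% ± 2.63 of the α level in WT and 34.7% ± 6.29 in GαqKO (SD, n = 3). Lama4 held 0.265% ± 0.325 in WT and 35.0% ± 16.7 in GαqKO, so the shares of Lama4 and Lama5 in GαqKO differed by less than their spread. Divided by the longest transcript instead, they were 49.1% for Lama4 and 27.0% for Lama5, and the WT share of Lama4 was 0.50%. On the first scale the WT share of Lama4 was 0.0833% without WT replicate 1 and 0.397% without WT replicate 2. The GαqKO shares of Lama2, Lama3 and Lama1, at 17.3%, 6.33% and 6.67%, are shares of a small sum and rest on values within the range of low genes of like span, Lama2 in every GαqKO library included. Among β chains, Lamb1 held 49.6% ± 0.76 in WT and 56.5% ± 1.81 in GαqKO, Lamb2 44.9% ± 1.04 and 43.5% ± 1.81, and Lamb3 5.42% ± 0.309 and 0.0323% ± 0.0281. The Lamb1 share did not overlap between groups (exact permutation test, two-sided p = 0.1), and the Lamb2 share did (p = 0.3 in the same exact test).

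**Figure D4:**
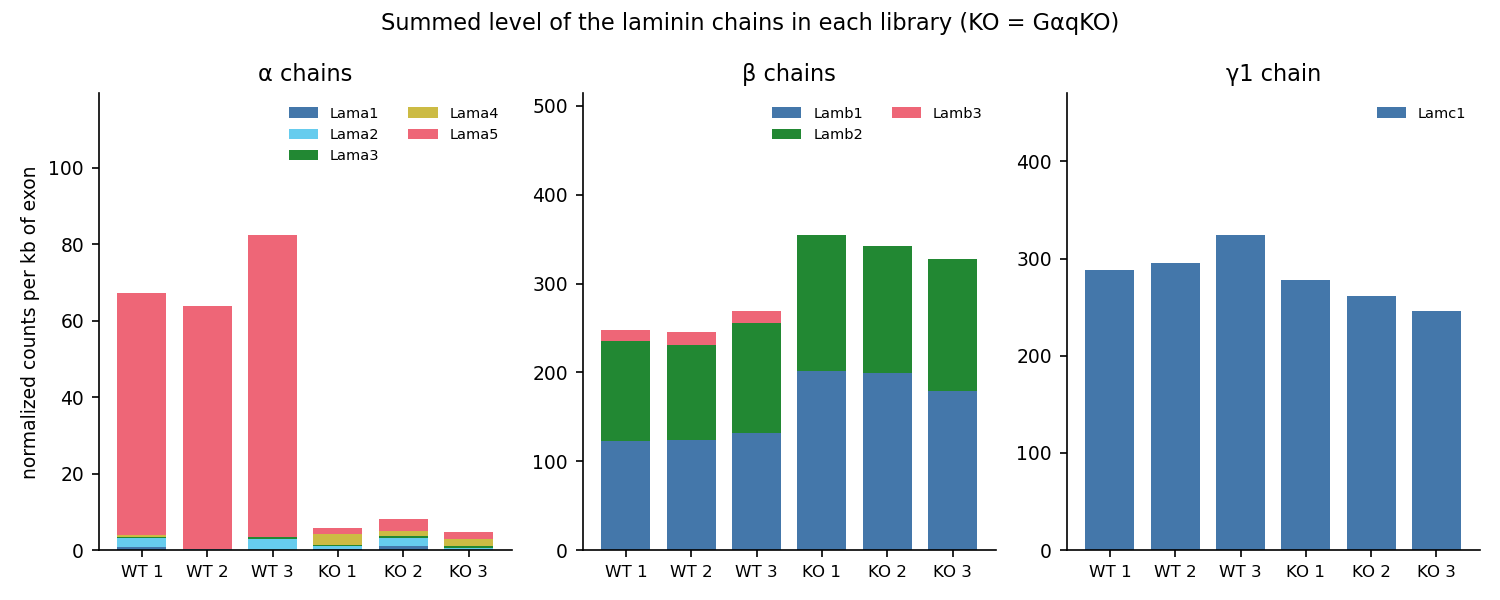
Stacked bars give the level of each chain in normalized counts per kb of exon in each library, for the α chains, the β chains and Lamc1 (γ1), each panel with its own axis from 0. The α bars fall from between 63.8 and 82.4 in WT to between 4.80 and 8.23 in GαqKO, while the β bars are taller and the Lamc1 bars shorter in GαqKO.

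The chains allow a trimer in a group when all 3 of its chains reached 10 normalized counts in each library of that group. Of 13 known trimers examined, named by the numbers of their chains, 2 were allowed in WT, laminin 511 and laminin 521, both through Lama5 with Lamb1 or Lamb2 and Lamc1. In GαqKO 4 were allowed, the same 2 and laminins 411 and 421, through Lama4. In each allowed trimer the α chain was the scarcest, at 68.6 per kb for laminin 511 in WT and 2.20 per kb in GαqKO, and at 2.00 per kb for laminin 411 in GαqKO. With a minimum of 100 normalized counts, 2 were allowed in WT and 0 in GαqKO. With a minimum above 3, 8 were allowed in GαqKO, and those added rest on Lama2 and Lama3 at levels of low genes of like span.

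Laminins 111 and 121 were missing Lama1 in both groups, and laminins 211 and 221 were missing Lama2, although without WT replicate 2 they were allowed in WT, which gave 4. Lamc3, for the γ3 chain of laminins 213, 423 and 523, had 6.27, 3.89 and 4.07 normalized counts in WT and 2.82, 3.47 and 5.04 in GαqKO and did not pass the filter. The trimers built on Lama3 with Lamb1 or Lamb2 and Lamc1, laminins 311 and 321, were missing Lama3 in both groups. These statements concern RNA, and no trimer was measured.

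The receptors that bind laminin did not move as 1 group. Of 14 receptor genes 12 were tested, with 2 higher and 2 lower past both thresholds. By adjusted p alone 5 rose and 4 fell, and the median log2 fold change was 0.16. Over all tested genes these shares were 10.2% and 10.5% past both thresholds and 31.8% and 34.1% by adjusted p, so the counts by adjusted p were near the background. Itga7, the integrin α7 of muscle that binds laminin, had 695, 676 and 744 normalized counts in WT and 14.1, 15.0 and 24.2 in GαqKO, a log2 fold change of -5.27 with an SE of 0.18 (limma, adjusted p = 1.65e-11). Mcam, an adhesion molecule of pericytes and endothelium that binds α4 laminin, had 760, 780 and 663 in WT and 4.70, 8.09 and 10.1 in GαqKO (log2 fold change -6.46, limma, adjusted p = 1.57e-11). Mcam passed the filter only through the WT libraries, so it could be tested only because the groups differed. Lama4, whose product it binds, was the α chain that rose.

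In the other direction, Itga6, the integrin α6 shared by the main epithelial laminin receptors, had 364, 341 and 335 normalized counts in WT and 944, 1001 and 886 in GαqKO (log2 fold change 1.44, limma, adjusted p = 3.70e-10). Itga2, for an integrin chain that binds collagen and laminin, passed the filter only through GαqKO, with 1.02 to 6.27 in WT and 20.1 to 30.1 in GαqKO (log2 fold change 2.44, limma, adjusted p = 0.000615). Itgb1, the β1 partner of these α chains and the most abundant gene of the list over all 6 libraries, rose from a mean of 8254 to 12548, which is 0.60 on the log2 scale (limma, adjusted p = 1.04e-08) and under the fold threshold. Sdc4, for syndecan-4, had a similar WT mean of 8281 and fell by 0.27 to a GαqKO mean of 6848 (limma, adjusted p = 5.27e-05). Dag1, for dystroglycan, had overlapping groups, with means of 4279 and 4239 and a log2 fold change of -0.01 with an SE of 0.05 (limma, adjusted p = 0.822).

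Of 25 other basement membrane genes 16 were tested, with 2 higher and 7 lower past both thresholds, and by adjusted p alone 3 rose and 12 fell, where 10.2% and 10.5% of all genes passed both thresholds and 31.8% and 34.1% passed by adjusted p. The median log2 fold change was -0.66, beside -0.01 over all tested genes, and the list was not tested as a set. Nid2, for a nidogen that links the laminin γ1 chain to type IV collagen, had 34.5, 46.6 and 55.0 normalized counts in WT and 525, 491 and 488 in GαqKO (log2 fold change 3.46, limma, adjusted p = 2.00e-10). Hmcn2, for a hemicentin, was the other gene higher past both thresholds, with means of 19.2 and 144 and a log2 fold change of 2.85. Nid1, for the more abundant nidogen, rose from a mean of 2701 to 5338. That is 0.98 on the log2 scale (limma, adjusted p = 2.32e-10) and under the fold threshold.

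Among the 7 lower genes, Col4a6 fell the most, from 741, 789 and 965 normalized counts in WT to 1.88, 11.6 and 1.01 in GαqKO, and Col4a5, its partner in the α5α6 network of type IV collagen, fell by 1.42 on the log2 scale. Npnt, for the integrin ligand nephronectin, fell by 3.54, and Agrn, for agrin, which binds laminin and dystroglycan, fell by 1.72. Ntn4, for the netrin that binds laminin γ chains, fell by 2.19. Tinagl1, for a tubulointerstitial antigen-like matrix protein, fell by 1.41, and Col18a1, for the basement membrane collagen that yields endostatin, fell by 1.14. The log2 fold change of Col4a6 was -7.63. Col4a6 and Ntn4 passed the filter only through the WT libraries, so they could be tested only because the groups differed. Sparc, the most abundant gene of the list and a collagen-binding glycoprotein, fell by 0.41 (limma, adjusted p = 1.49e-06).

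**Figure D5:**
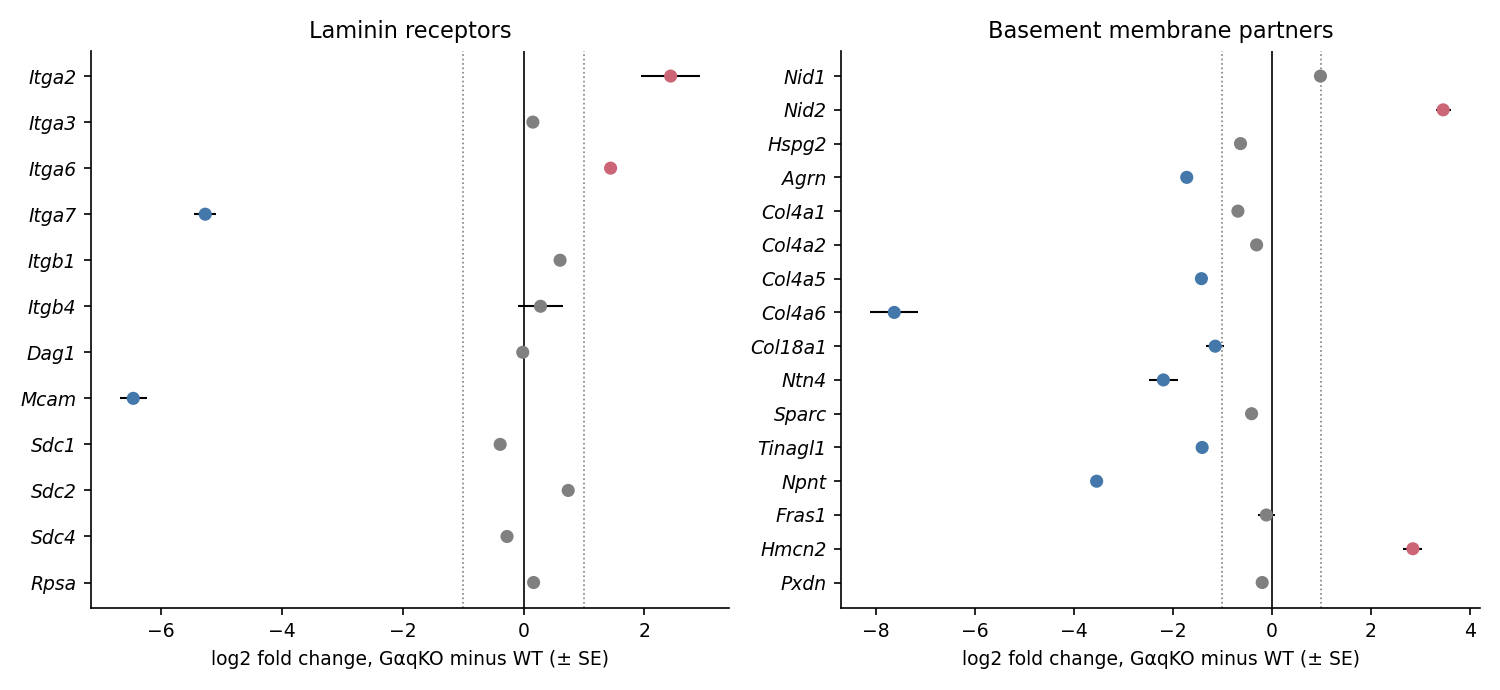
Points are log2 fold changes of GαqKO minus WT with standard errors, for the 12 tested laminin receptors (left) and the 16 tested basement membrane partners (right), with dotted lines at the fold thresholds and red and blue for genes higher and lower past both. Itga7 and Mcam lie at -5.27 and -6.46 while Itga2 and Itga6 lie at 2.44 and 1.44, and on the right Col4a6 lies at -7.63 and Nid2 at 3.46.

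The netrins share the N-terminal domain of laminin chains. Of 6 listed 3 were tested, with 1 higher and 2 lower past both thresholds, beside 10.2% and 10.5% of all genes. Ntn1, the axon guidance netrin and most abundant of them, had 3508, 3124 and 3466 normalized counts in WT and 1021, 1045 and 1070 in GαqKO (log2 fold change -1.68, limma, adjusted p = 5.55e-12). Ntn4, which is also on the list of partners, was the second lower gene, and Ntn3 rose by 1.03 from a mean of 19.5 to 40.9.

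The list of proteases that act on laminin, directly or through another protease they activate, held 9 genes, of which 6 were tested. Past both thresholds 1 was higher and 1 lower, and by adjusted p alone 2 rose and 3 fell. The background was 10.2% and 10.5% past both thresholds, and 31.8% and 34.1% by adjusted p. Mmp9, a gelatinase, had 5.22, 12.6 and 18.3 normalized counts in WT and 245, 245 and 214 in GαqKO (log2 fold change 4.32, limma, adjusted p = 4.83e-08). Mmp9 passed the filter only through the GαqKO libraries, so it could be tested only because the groups differed. Plat, for tissue plasminogen activator, had 448, 432 and 415 in WT and 101, 128 and 152 in GαqKO (log2 fold change -1.78, limma, adjusted p = 3.85e-08). Mmp14, the membrane-bound protease and most abundant of the list, had means of 3880 and 4030 and did not pass the test (limma, adjusted p = 0.26). Htra1 was listed at 0 in all 6 libraries.

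The smooth muscle and pericyte markers summed to 704 to 873 normalized counts in WT and 281 to 319 in GαqKO, most of it from Acta2, with means of 715 and 266. The Schwann cell markers summed to 342 to 378 and 77.0 to 80.9, and Erbb3, the most abundant, had means of 264 and 3.46, while Sox10 and Foxd3 were at the floor in all libraries. Macrophage markers summed to 104 to 115 and 69.5 to 103, mostly Cd68. Pecam1, the most abundant endothelial marker, had means of 10.9 and 9.65, and Pax7, that of skeletal muscle, 5.42 and 1.68. The fibroblast markers moved both ways: of 9 tested, 3 were higher and 1 lower past both thresholds, and by adjusted p alone 4 rose and 5 fell. Thy1, 1 of the 3 higher, passed the filter only through the GαqKO libraries, so it could be tested only because the groups differed. The shares over all tested genes were 10.2% and 10.5% past both thresholds, and 31.8% and 34.1% by adjusted p. Pdgfra had means of 19.6 in WT and 2320 in GαqKO, and Col1a1, for a chain of type I collagen, had means of 16671 and 5774 (log2 fold change -1.53, limma, adjusted p = 2.11e-11). The part of these genes in the laminin results was not tested.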

How the data were processed

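The authors aligned paired-end reads of poly-A selected libraries to GRCm39, assigned them to the genes of GENCODE release 32 with featureCounts and deposited a table of normalized counts, a signal that is each gene count divided by 1 size factor per library. The strand setting of the counting and the aligner's version are not given in the sources used here. Symbols came from GENCODE release 39 and matched 56310 of 56953 identifiers (98.9%).

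A gene was tested if 3 or more libraries held 10 or more normalized counts. limma 3.58.1 (R 4.3.3) was fitted on log2(normalized count + 1) with a trended prior, genotype as the only term and Benjamini-Hochberg adjustment over 14096 genes. This scale understates the changes of low genes. Thresholds were an adjusted p of 0.05 and a log2 fold change of 1. The floor was 3 counts per library and covers counting error only. Whole reads were recovered in 5 libraries, 100.0% of their nonzero values being whole within 0.01 read, and edgeR 4.0.16 and DESeq2 1.42.0 were run on those as alternatives. The fits were tested on simulated data. Promoter windows were taken from RefSeq on GRCm38.p6. Figures were drawn with matplotlib 3.10.9.

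The chains, lists and tests were chosen with earlier results of these data known. Named are all chains, Lamc3, Gnaq and Gna11, the members of each list past both thresholds and its most abundant tested member, and the most abundant marker of each cell type. Outside that rule, Dag1, Sdc4, Pth1r, Col1a1, Htra1, Gata6, Foxa2, Pdgfra, Thy1, Lum, Epcam and the markers at the floor were named after their values were seen. The same holds for Cdh1, Krt8, Krt18, Esrp1, Cldn4 and Nid1. A few items that this rule covers are not given in this text.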

Additional observations from a re-analysis of the deposited data

How the results depend on the processing

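With a filter of 10 normalized counts in every library, 4 chains were tested and 0 were higher and 1 lower past both thresholds, since Lama4 and Lamb3 then drop out. The log2 fold change of Lama2 ranged from -1.34 to 0.094 with each library left out, changing sign without WT replicate 1 (0.00044) and WT replicate 3 (0.094). With the longest transcript as length, the GαqKO share of Lama5 among α chains was 27.0% and that of Lama4 49.1%, the Lamb1 share among β chains 61.7% in WT and 67.8% in GαqKO, the level of α chains over Lamc1 0.164 in WT, and that of β chains over Lamc1 1.34 in GαqKO. With all exon bases the level of β chains over Lamc1 was 0.821 in WT. The lengths for these ratios were chosen after seeing the data. Trimers allowed in GαqKO numbered 8 above 3 counts and 0 at 100 counts, and in WT ranged from 2 to 4 with each library left out. The labels give both groups the replicate numbers 1 to 3, but same-numbered libraries did not deviate together (correlations of -0.05, -0.15 and -0.06 across genes), and no library correlated best with its own number. A replicate block left the chains past both thresholds at 1 higher and 2 lower, and changed the counts over all genes from 1432 and 1486 to 1421 and 1478. The edgeR and DESeq2 fits on recovered reads also gave 1 higher and 2 lower, and edgeR called 1460 genes higher and 1554 lower in all. Calls on Lama5, Lama4, Lamb1, Lamb2 and Lamb3 held in every alternative in which they were tested. The low counts of Lama4, and of Lama5 in GαqKO, limit how closely the α shares can be known.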
